A study of Mus musculus with 48 samples.

Results

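Susd2 is the subject here, 1 of 19505 genes with a symbol on the array, and it was chosen because the 3 day Kupffer control alone had a high level of it. A single probe set carries its name. The levels of Susd2, and of genes sharing its pattern, are therefore given as a description, with no test. Susd2 encodes a cell surface protein, anchored by a single membrane span, whose outer part joins a somatomedin B domain, an AMOP domain, a von Willebrand factor type D domain and a sushi domain. Sushi domains are short disulphide-bonded folds found in many complement proteins and in the alpha chains of the receptors for interleukins 2 and 15. In other tissues the protein marks endometrial mesenchymal stem cells and naive pluripotent stem cells, it has been described as a partner of galectin-1 in tumour cells, and in T cells as an inhibitor of interleukin 2 receptor signalling.

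The study cultured macrophages from Balb/c male mice of unstated age. Kupffer cells, which live in the sinusoids of the liver, were sorted with magnets for F4/80, and monocytes were taken from blood of these mice by CD115 and cultured into macrophages. Both were kept for 1 day with MCSF, the growth factor of macrophages that acts through the receptor Csf1r. They were then cultured for 1 or 3 more days with Ito cells (the stellate cells of the liver), with CD146 cells (sinusoidal endothelial cells), with HGF (hepatocyte growth factor), or with MCSF as the control. The cell, the addition and the day give 16 groups of 3 arrays, 48 in all. The descriptions count 2 and 4 days of MCSF for the control groups called 1 day and 3 day. The labels call the replicates biological but do not name the animals or cultures, so the spread between arrays may be partly technical. Contact between added cells and macrophages, any removal of the added cells before RNA extraction, and whether MCSF stayed in the medium are not stated.

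Values are log2 levels, so 1 unit is a doubling of signal. Array medians over genes ran from 4.27 to 5.51, and the mean of the 5222 negative control probe sets ran from 5.07 to 6.15 per array. A level under that mean is not distinguishable from background here. Over background means over that mean, which some negative control probe sets also exceed, so a level just over it may still be background. The number of arrays, 3 per group, limits the precision. Macrophage genes were high throughout: the mean of 14 general macrophage markers ran from 13.92 to 15.96 over the 16 groups and was highest in the 3 day Kupffer control. Clec4f, the lectin that defines Kupffer cells in the mouse liver, was under the negative controls on all arrays of all 16 groups, so the Kupffer label rests on the sort and not on that marker. Monocytic MCSF 3 day replicate 3, Kupffer MCSF 1 day replicate 1 and, lowest, Kupffer HGF 1 day replicate 2 stood apart from their group mates (mean r of 0.977, 0.955 and 0.941). Tested calls that rest on them are given with and without them. Means of marker lists include all arrays.

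Susd2 was high in Kupffer cells kept for 3 days with MCSF and in no other group. Its 3 arrays there read 16.01, 16.78 and 16.81, a mean of 16.53 ± 0.45 (SD, n = 3), at the 99.0th to 99.4th percentile of all genes on the array. Only 115 genes lay above it on all 3 arrays. On the 45 arrays of the other 15 groups the level ran from 1.86 to 5.42 with a median of 3.09, and all 45 were under the negative control mean of their own array. The 3 high arrays and the 45 others did not overlap. The lowest control array stood 10.59 above the highest other array, the largest such gap of all 19505 genes.

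The 1 day Kupffer control had no signal above background. Kupffer MCSF 1 day read 3.55, 3.44 and 3.09 (3.36 ± 0.24, SD, n = 3). Among Kupffer cells that received an addition for 3 days, HGF gave 3.00, 3.02 and 3.28 (3.10 ± 0.15), Ito cells 3.19, 3.29 and 2.74 (3.07 ± 0.30) and CD146 cells 2.94, 3.06 and 3.25 (3.08 ± 0.16). These 3 groups overlapped one another entirely, and none had an array over background. The 1 day additions to Kupffer cells lay in the same range. Their arrays read 3.16, 3.03 and 3.04 with HGF (3.08 ± 0.07), 3.17, 2.88 and 3.07 with Ito cells (3.04 ± 0.14), and 3.11, 2.70 and 3.29 with CD146 cells (3.03 ± 0.30).

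Monocytic macrophages had no Susd2 above background under any condition. The 3 day monocytic control, the closest match in time and medium, read 3.34, 2.82 and 5.42 (3.86 ± 1.38, SD, n = 3), the highest mean of the other groups. That mean rests on replicate 3, the array at 5.42. No other array outside the 3 day Kupffer control passed 3.93, so the gap would be 12.08 without replicate 3. The 1 day monocytic control read 3.16, 3.40 and 3.43 (3.33 ± 0.15), and the 1 day culture with CD146 cells 3.56, 3.89 and 3.93 (3.79 ± 0.21). Lower levels came with Ito cells for 1 day, at 2.97, 2.96 and 2.70 (2.87 ± 0.15), and with HGF for 1 day, at 2.55, 2.55 and 1.86 (2.32 ± 0.40). These are differences under background. The 3 day cultures with HGF (2.75, 2.86 and 3.24), Ito cells (2.90, 3.20 and 3.07) and CD146 cells (3.20, 2.97 and 3.31) had means of 2.95 ± 0.26, 3.06 ± 0.15 and 3.16 ± 0.18.

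**Figure D1:**
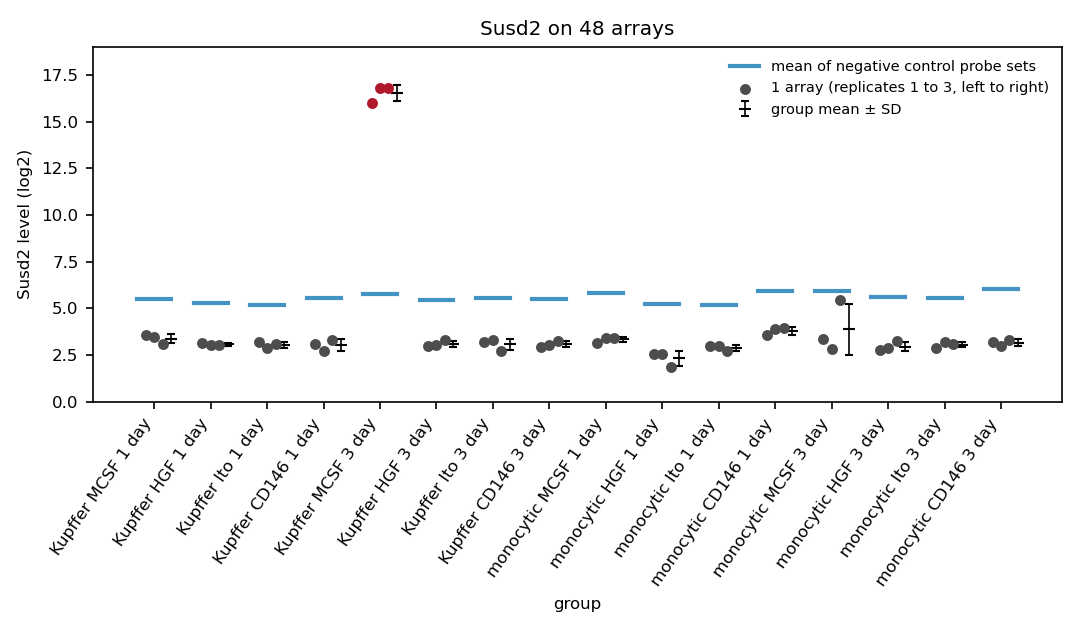
Susd2 level (log2) on each of 48 arrays by group; points are arrays, the cross with bars is the group mean ± SD (n = 3) and the blue line is the mean of the negative control probe sets. The 3 day Kupffer control lies between 16.01 and 16.81, and all 45 other arrays lie under the blue line.

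In order of group means, Susd2 rose from 2.32 in monocytic HGF 1 day through 3.86 in monocytic MCSF 3 day to 16.53 in Kupffer MCSF 3 day. Of the 14 steps between neighbours among the 15 lower groups, 12 joined groups whose arrays overlapped, so neighbours there did not differ beyond their spread. The steps without overlap were from monocytic HGF 1 day to monocytic Ito 1 day and from Kupffer MCSF 1 day to monocytic CD146 1 day. Group means differed from that of the 3 day Kupffer control by 12.67 to 14.21. Because the lower side was under background, a bound is more useful than the difference. Taking each comparison group at its negative control mean, Susd2 was at least 1460-fold higher in the 3 day Kupffer control in the comparison with the lowest bound, and at least 2624-fold higher in the comparison with the highest. In these bulk cultures, more cells carrying Susd2 RNA and more Susd2 RNA per cell cannot be told apart.

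Another 32 genes shared the pattern. A gene counted as high alone when the lowest 3 day Kupffer control array lay at least 2 log2 units above the highest of the other 45 arrays. That held for 33 genes with Susd2, 0.169% of all genes. With no minimum gap, 511 genes were higher on the 3 control arrays than on all 45 others, 2.62% of all genes. The same count at 2 units gave 7 genes for Kupffer Ito 1 day, 1 for Kupffer HGF 3 day, 1 for monocytic HGF 3 day and 0 for the 12 remaining groups. Just inside the limit lay Bckdhb with a gap of 2.13 and Lgals3bp with 2.05, and just outside it Antxr1 with 1.98 and Vnn3 with 1.96. Gaps are differences of measured levels, also where the lower level is under background. The genes were chosen by these levels, so the values below describe them and support nothing.

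Likeness to Susd2 was measured as Pearson's r over the 16 group means, in which the high group carries most weight. The 15 most alike of the 32 had r from 0.855 to 0.981. Over the 15 other groups alone, where Susd2 was at background, their r ran from 0.119 to 0.747. Over all genes, 14 had r above 0.9, and 10 of them were high alone. Spearman correlation, which gives the background groups equal weight, kept 6 of the 15. Unrelated picks of 15 from the same 32 genes would also overlap, so the ranking by likeness depends on the measure.

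Gp6, the platelet collagen receptor glycoprotein VI, was most like Susd2, with r = 0.98. It read 8.77, 9.51 and 9.67 on the 3 control arrays (9.31 ± 0.48, SD, n = 3) and at most 4.43 elsewhere. Like Susd2, it was under the negative controls in all 15 other groups. Only Il23r, a chain of the interleukin 23 receptor, and Tnfsf13b, the B cell survival factor BAFF, shared that property among the 32. Il23r read 7.55, 8.32 and 7.27 (7.71 ± 0.54), with r = 0.95 and a gap of 2.26. Tnfsf13b read 8.10, 8.56 and 8.98 (8.55 ± 0.44), with r = 0.85 and a gap of 2.35. The other genes had a group mean over that of the negative controls in at least 1 more group, 18 of them in some groups and 11 in all 15. Some passed it narrowly, such as Cfap410 at 6.03 against 5.90 in monocytic MCSF 3 day. Passing that mean does not by itself show signal.

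Foxp4, a forkhead transcription factor, came next with r = 0.97. Its 3 control arrays read 9.28, 10.68 and 10.93 (10.30 ± 0.89) against 6.70 on the highest other array. Siglece, an inhibitory receptor for sialic acids on myeloid cells, read 9.76, 11.40 and 11.89 (11.01 ± 1.12) with r = 0.92. In both genes replicate 1 was the lowest of the 3, as it was for Susd2. Replicate 1 was lowest for 18 of the 32 genes (56.2%) and for 37.9% of all genes. Without it, 47 genes were high alone, the 33 among them, since leaving out an array can only add genes.

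Ccl5, a chemokine for T cells and monocytes, had the widest gap after Susd2, 8.49. It read 17.98, 18.06 and 17.84 (17.96 ± 0.11) against 9.35 on the highest other array, in monocytic CD146 1 day. Cxcl13, the chemokine of B cells, read 19.54, 19.57 and 19.42 near the top of the scale, which ends at 19.93. It was also high elsewhere, with 15.78 in monocytic CD146 3 day, and had the lowest r of the 32, 0.52. Ly6i, a Ly6 family surface protein, read 18.01, 17.51 and 17.30 (17.61 ± 0.37), and its nearest group was Kupffer Ito 1 day at 13.16.

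Hp, haptoglobin, a plasma protein of the acute phase that binds free haemoglobin, read 16.97, 16.61 and 17.10 (16.89 ± 0.25). The nearest group, monocytic CD146 3 day, had a mean of 11.76. Cfb, complement factor B, the protease of the alternative pathway, read 16.22, 16.10 and 16.14 (16.15 ± 0.06). Both proteins carry sushi domains, as Susd2 does. Cp, the copper-bearing ferroxidase ceruloplasmin, read 13.41, 13.66 and 13.66 (13.58 ± 0.14) with a gap of 2.90.

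Cdh6, a cadherin, read 10.54, 11.45 and 11.05 (11.01 ± 0.45), with a gap of 4.07 and r = 0.93. Mmp2, the gelatinase that cuts collagen IV, read 11.31, 12.12 and 12.34 (11.93 ± 0.54). Bmp1, the protease that trims procollagen, read 9.87, 10.80 and 10.76 (10.48 ± 0.53), and Olfml3, a secreted matrix glycoprotein, 13.25, 13.40 and 13.75 (13.47 ± 0.26). Mmp2 and Bmp1 had their next highest group mean in monocytic MCSF 3 day, at 6.95 and 5.95. Mmp2, Bmp1 and Olfml3 are also made by fibroblasts and Ito cells, so the whole marker list of those cells stands beside them. Its 18 measured genes averaged 6.60 in the 3 day Kupffer control (6.37 to 6.73 by array), 6.70 with HGF, 5.84 with Ito cells and 6.48 with CD146 cells at 3 days. The list averaged 4.95 in the 1 day Kupffer control and 6.22 in the 3 day monocytic control. In the 3 day Kupffer control 8 of 18 were over the negative controls: Pdgfrb, Dcn, Col1a1, Col1a2, Acta2, Tagln, Hgf and Lox. Lrat, Des, Reln, Lum and Col3a1 were among those under them. The part of such cells in these levels was not tested.

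Gbp2, a GTPase induced by interferon gamma, read 15.35, 15.45 and 14.94 (15.25 ± 0.27), and its relative Gbp3 averaged 12.73 ± 0.23. AW112010, a transcript induced by interferon, read 13.76, 13.53 and 12.78 (13.36 ± 0.51). Acp5, the tartrate-resistant acid phosphatase of osteoclasts and macrophages, read 16.76, 17.04 and 16.88 (16.89 ± 0.14), and Smpdl3b, a membrane-bound phosphodiesterase that dampens Toll-like receptor signals, 13.25, 13.95 and 13.86. Calhm6, a channel protein of activated macrophages, read 10.78, 11.51 and 10.95 (11.08 ± 0.38) with a gap of 3.56.

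Nr1h3, the oxysterol receptor LXR alpha that directs cholesterol export, read 11.37, 11.48 and 11.37 (11.41 ± 0.06) and had a gap of 2.25. Osbpl3, an oxysterol-binding protein, averaged 11.80 ± 0.32 with a gap of 2.93. Lmo4, a LIM domain adaptor, averaged 12.08 ± 0.19. Adhfe1, an alcohol dehydrogenase of mitochondria, averaged 9.75 ± 0.16, and Bckdhb, a subunit of the branched-chain keto acid dehydrogenase, 9.19 ± 0.36. Cfap410 and Serf1 averaged 9.18 ± 0.24 and 10.80 ± 0.44. The set was completed by Dtnb (12.33 ± 0.76), a dystrobrevin, Trpm2 (10.35 ± 0.26), a calcium channel opened by ADP-ribose, Itgal (13.91 ± 0.06), the alpha chain of the integrin LFA-1, and Lgals3bp (17.83 ± 0.43), the galectin-3 binding protein.

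**Figure D2:**
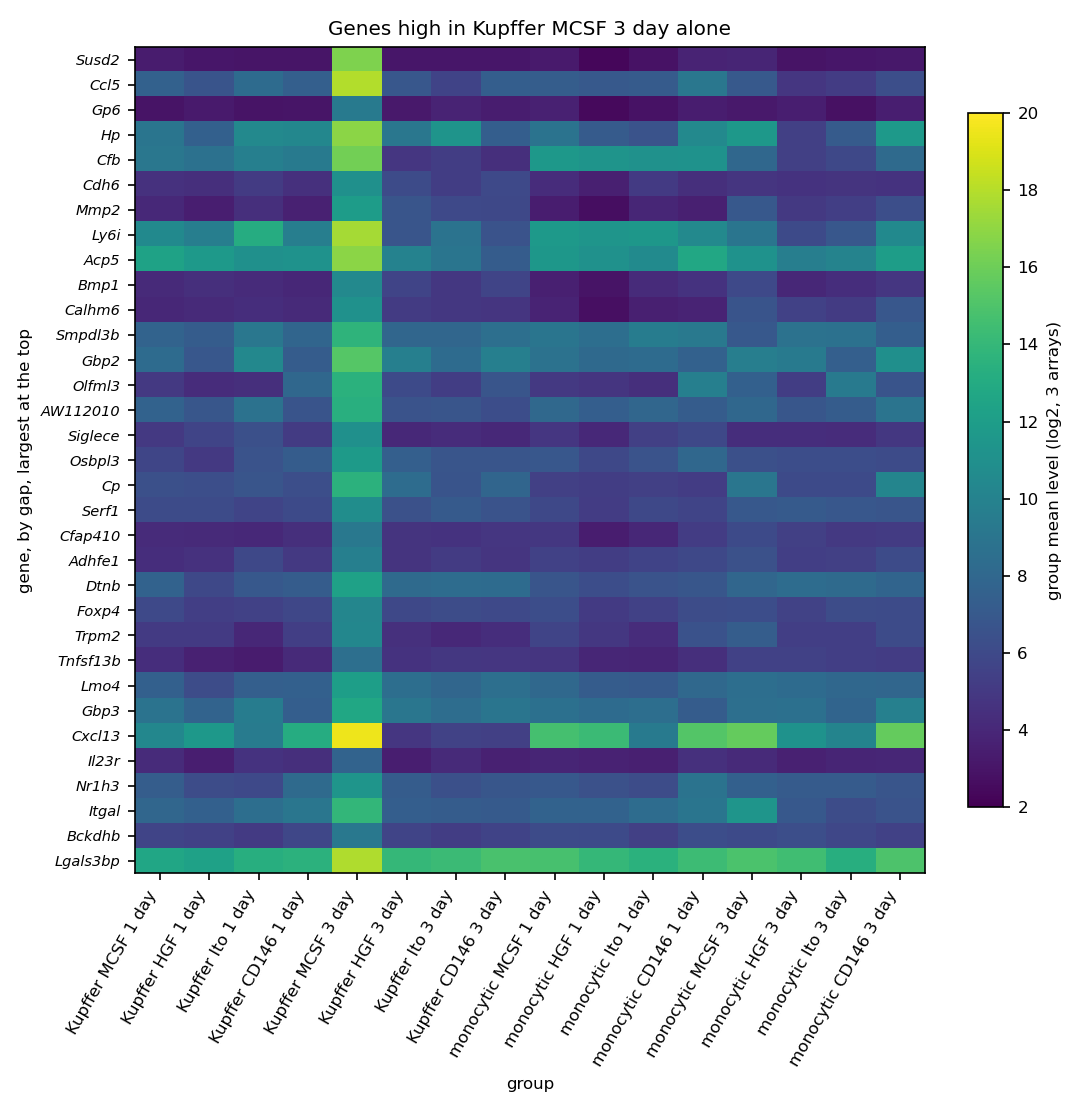
Group mean level (log2, 3 arrays each) of the 33 genes high in Kupffer MCSF 3 day alone, by gene (rows, widest gap at the top) and group (columns). The column of the 3 day Kupffer control is the brightest in every row, while Susd2, Gp6 and Il23r are dark in all other columns and Lgals3bp and Cxcl13 are not.

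The nearest other array belonged to a monocytic group for 24 of the 32 genes and to a Kupffer group for 8. It was an array of the 3 day monocytic control for 9, of which 3 were replicate 3, the array with Susd2 at 5.42. More of the 45 other arrays are monocytic than Kupffer, and these shares were not counted over all genes. They therefore do not place the 32 genes nearer to either cell. Replicate 3 of the 3 day monocytic control was the highest of its group of 3 for 20 of the 32 genes (62.5%) and for 35.4% of all genes. The median level of the 32 genes was 12.00 in the 3 day Kupffer control. In the other groups it ran from 5.78 in monocytic HGF 3 day to 7.17 in the 3 day monocytic control. It was 6.23 in the 1 day Kupffer control.

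**Figure D3:**
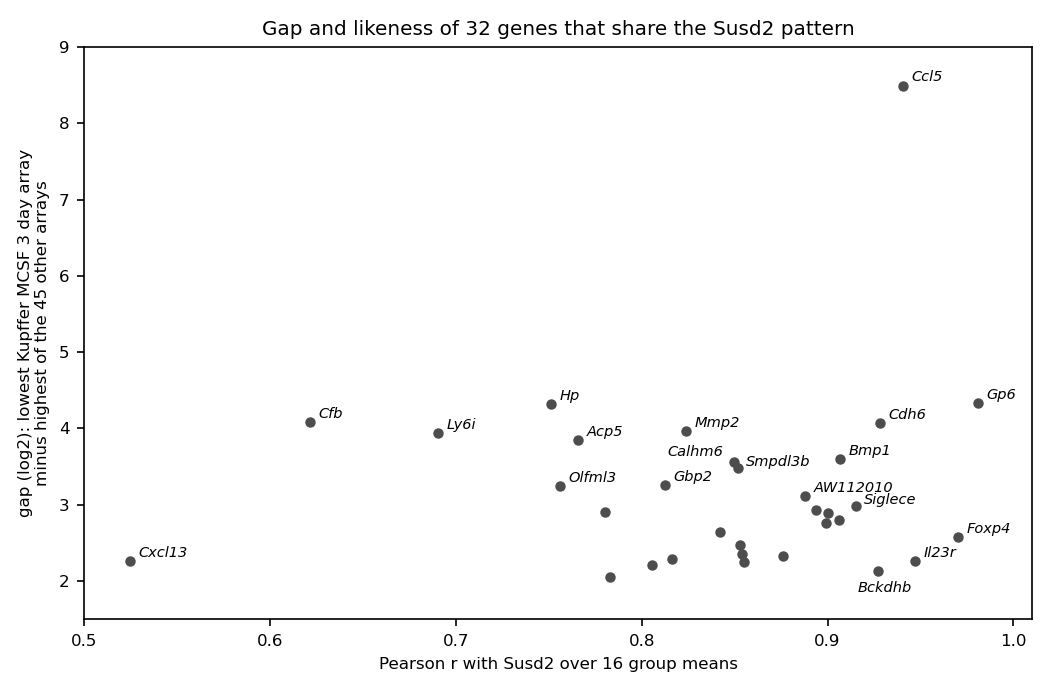
Gap (log2; lowest 3 day Kupffer control array minus highest of the 45 other arrays) against Pearson's r with Susd2 over 16 group means, for the 32 genes sharing the pattern; genes with a gap over 3 or an extreme r are named. Ccl5 stands apart at a gap of 8.49, Gp6 has the highest r at 0.98 and Cxcl13 the lowest at 0.52.

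One gene had the mirror pattern. Emp1, a membrane protein of the claudin-like PMP22 family, read 6.44, 6.48 and 6.78 in the 3 day Kupffer control (6.56 ± 0.18, SD, n = 3). On the 45 other arrays it was never under 11.21, and the lowest other group mean was 11.26, in monocytic CD146 3 day. The gap was 4.43 and r with Susd2 was -0.85. With no minimum gap, 76 genes were lower on the 3 control arrays than on all others, 0.39% of all genes.

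Promoters show whether the sharers have letters in common near their start sites. The RefSeq promoter table on GRCm38.p6 held 24 of the 33 genes with 36 promoters. Those without an entry were Susd2, Ccl5, Hp, Cfb, Mmp2, Ly6i, Bmp1, Adhfe1 and Itgal. The 250 bases before each start were searched on both strands for the interferon-stimulated response element GAAANNGAAA, the gamma-activated site TTCNNNGAA and the NF-kB site. The first was found in 4 of 36 promoters (11.1%), against 2.98% of all 32851 in the table. It lay before Calhm6, Gbp2, Gbp3 and Tnfsf13b. The gamma-activated site was in 0 of 36, against 7.02% of all, and the NF-kB site in 2 of 36 (5.56%; AW112010 and Smpdl3b), against 7.25%. A match describes letters only. The promoters of Calhm6 (minus strand, chr10:34127973-34128222) and Gbp2 (plus strand, chr3:142620413-142620662) are shown for the element, in capitals, which reads in reverse complement before Gbp2, and that of Gp6 (minus strand, chr7:4397745-4397994) as the gene most like Susd2, with none of the 3 motifs.
Calhm6: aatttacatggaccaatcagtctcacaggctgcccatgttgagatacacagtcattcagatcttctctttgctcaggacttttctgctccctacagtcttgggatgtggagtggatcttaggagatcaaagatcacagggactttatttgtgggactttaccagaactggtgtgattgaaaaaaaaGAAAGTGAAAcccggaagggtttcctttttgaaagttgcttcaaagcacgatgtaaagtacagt
Gbp2: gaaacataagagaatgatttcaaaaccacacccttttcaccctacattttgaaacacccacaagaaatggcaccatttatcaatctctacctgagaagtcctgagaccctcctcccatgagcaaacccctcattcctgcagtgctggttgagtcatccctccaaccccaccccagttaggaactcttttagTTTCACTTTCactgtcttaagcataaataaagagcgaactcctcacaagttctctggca
Gp6: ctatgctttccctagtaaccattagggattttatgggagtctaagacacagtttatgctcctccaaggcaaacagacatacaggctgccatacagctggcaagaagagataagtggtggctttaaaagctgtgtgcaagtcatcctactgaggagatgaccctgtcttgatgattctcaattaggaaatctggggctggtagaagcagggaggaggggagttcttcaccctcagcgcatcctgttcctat

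Genes beside Susd2 on the chromosome did not share its pattern. Of the 5 genes on each side in the RefSeq order, 4 of 10 were measured. All 4 had overlapping arrays, with gaps of -0.47 for Ggt5, a gamma-glutamyltransferase that cleaves leukotriene C4, -0.41 for Cabin1, a calcineurin inhibitor, -0.83 for Ddt, a relative of the cytokine MIF, and -0.71 for Gstt3, a glutathione transferase. Cabin1, which lies next to Susd2, averaged 9.58 ± 0.34 in the 3 day Kupffer control and 9.46 in the 3 day monocytic control. Smaller differences did pass the test.

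Those tests come from a limma fit over all genes and 48 arrays that compared the 3 day Kupffer control with 5 groups: its 1 day counterpart, the 3 day Kupffer cultures with HGF, Ito cells or CD146 cells, and the 3 day monocytic control. The p-values were adjusted by Benjamini-Hochberg over all genes in each comparison, with 0.05 as the threshold. Higher and lower genes in the 3 day Kupffer control were 21.5% and 10.2% of all genes against its 1 day counterpart, 13.1% and 14.5% against HGF, 12.3% and 14.5% against Ito cells, 12.4% and 14% against CD146 cells, and 6.38% and 5.7% against the 3 day monocytic control. The 4201 higher and 1996 lower genes against the 1 day control became 3072 and 2930 after quantile normalization. Median centring turned 2562 and 2824 against HGF into 3287 and 2349, and 2399 and 2820 against Ito cells into 2988 and 2058. All 5 comparisons share the 3 day Kupffer control arrays. Differences below are log2 with their SE, relative to the median of all genes, which itself differed by 0.15 against the 1 day control and by -0.11 against Ito cells. The p-values test the difference before that median is taken off. Where a gene was under background on all 3 arrays of a comparison group, its difference is given as a bound, at least the level over that group's negative control mean, with no median taken off. Among the neighbours of Susd2, Cabin1 was higher in 4 of the 5 comparisons by 0.77 to 1.68. Its call against CD146 cells was lost without Kupffer MCSF 3 day replicate 2 or any 1 Kupffer CD146 3 day array (adjusted p from 0.0529 to 0.176). Ddt was higher in 2, by 1.83 against CD146 cells and 2.72 against the 1 day control. Without the 3 arrays that stand apart, Ddt also passed against HGF, Ito cells and the monocytic control (adjusted p = 0.00631, 0.0232 and 0.00486). Ggt5 passed in 4 and Gstt3 in 3, but these are differences at background. Ggt5 read 6.05, 4.73 and 5.83 in the 3 day Kupffer control, over background on 2 of 3 arrays, and its bounds did not exceed 0.09. Gstt3 averaged 6.29 there, and 4.79, 5.25 and 5.34 in the groups it was tested higher against, each under that group's negative control mean.

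Genes with a sushi domain, the relatives of Susd2 by that fold, went both ways. With 35 of 37 listed genes measured besides Susd2, 11 were higher and 7 lower against the 1 day control, 8 and 5 against HGF, 8 and 4 against Ito cells, 8 and 7 against CD146 cells, and 6 and 3 against the monocytic control. The higher shares were above those of all genes in all 5 comparisons. The lower shares were also above those of all genes against the 1 day control, CD146 cells and the monocytic control, and below them against HGF and Ito cells. Their median differences were 0.29, -0.04, -0.04, -0.06 and -0.00, beside 0.15, 0.00, -0.11, -0.01 and -0.02 for all genes. Within the Susd family only Susd6, a membrane protein induced by p53, rose strongly. It read 12.32, 12.51 and 12.71 in the 3 day Kupffer control against 9.31, 9.79 and 9.56 in its 1 day counterpart. It was higher by 2.82 ± 0.25, 3.06 ± 0.25, 3.59 ± 0.25 and 3.10 ± 0.25 against the 4 Kupffer groups (largest adjusted p = 1.1e-12). Against the 3 day monocytic control, which read 12.22, 12.25 and 11.32, the difference was 0.61 ± 0.25 (adjusted p = 0.129).

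The other Susd genes did not follow Susd2. Susd3 was higher than in the 1 day control by 1.63 ± 0.29 (adjusted p = 4.1e-06) but lower than in the monocytic control, by -2.01 ± 0.29 (adjusted p = 7.41e-07), and with CD146 cells, by -1.16 ± 0.29 (adjusted p = 0.00138). Susd1 passed once, against Ito cells, at -0.70 ± 0.31, or -0.82 before the median was taken off (adjusted p = 0.0468). The call was lost after quantile normalization or median centring (adjusted p = 0.116 and 0.137) and without Kupffer MCSF 3 day replicate 1 or 2 or any 1 Kupffer Ito 3 day array (adjusted p from 0.0562 to 0.215). Susd4 and Susd5 passed in none of the 5 comparisons, and no array of Susd5 was over background in any group. Among other sushi proteins, Il15ra, the chain that presents interleukin 15, was higher in all 5 by 2.73 to 3.42. C1ra and C2, proteases of the classical complement pathway, were also higher in all 5. The range was 2.40 to 3.38 for C1ra and at least 1.08 to 1.53 for C2, which was under background in the 5 comparison groups. On all 3 control arrays, 7 of the 35 were higher than on all others, beside 2.62% of all genes: C1ra, C1s1, C2, Cfb, Hp, Il15ra and Susd6.

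Relatives by the other domains of Susd2 gave no common direction. Of 14 listed genes 11 were measured, and the higher and lower counts were 2 and 1, 1 and 2, 2 and 3, 1 and 2, and 1 and 1 in the order used above. In that order, 21.5%, 13.1%, 12.3%, 12.4% and 6.38% of all genes were higher, and 10.2%, 14.5%, 14.5%, 14% and 5.7% lower. Prg4, lubricin, which has somatomedin B domains, stood out. It read 12.71, 14.29 and 14.51 in the 3 day Kupffer control and was under background on all arrays with HGF, Ito cells or CD146 cells at 3 days, which read from 3.42 to 4.69. Against these 3 groups it was higher by at least 8.39, 8.29 and 8.33 (largest adjusted p = 7.75e-11), and by 5.02 ± 0.92 against the monocytic control (adjusted p = 8.6e-05). The pattern was unlike that of Susd2, since the 1 day groups also had it, with 14.46 in Kupffer Ito 1 day and 16.33 in monocytic CD146 1 day. In the 1 day Kupffer control it read 5.85, 13.80 and 14.29. The difference there, 2.38 ± 0.92 (adjusted p = 0.0323), was 2.53 before the median was taken off, and that value became -0.20 without replicate 1 (adjusted p = 0.73), and the call was also lost without Kupffer MCSF 3 day replicate 2 or 3 (adjusted p = 0.102 and 0.122). Vtn, vitronectin, and Vwf, von Willebrand factor, were under background in the 3 day Kupffer control and passed as lower in 3 and 4 comparisons. The comparison groups there were close to background too, with means of 5.68 to 6.31 for Vtn and 6.09 to 6.44 for Vwf. Without Kupffer MCSF 3 day replicate 3, Vwf passed in none of those 4 (adjusted p from 0.107 to 0.407). Bmper, a secreted BMP regulator, was higher by at least 0.57 and 0.54 against the 1 day control and Ito cells, where it was under background. The Bmper call against Ito cells was lost without Kupffer MCSF 3 day replicate 1 or 2, or Kupffer Ito 3 day replicate 2 or 3 (adjusted p from 0.0563 to 0.108). Enpp3, an ectonucleotidase, and Zan, a sperm membrane protein, passed once each, Enpp3 at -1.29 against CD146 cells and Zan against Ito cells with both sides under background, the latter not without Kupffer MCSF 3 day replicate 3 (adjusted p = 0.0534).

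Galectin-1 and galectin-3, sugar-binding proteins of which the first is a described partner of Susd2, were low where Susd2 was high. Lgals1 read 14.72, 13.89 and 14.85 in the 3 day Kupffer control and at least 14.91 on every other array. Lgals3 read 15.81, 13.85 and 14.36 against at least 16.44 elsewhere. Both still had high levels. Lgals3 was lower in all 5 comparisons, by -2.52 ± 0.42 to -3.72 ± 0.42 (largest adjusted p = 1.33e-05). Lgals1 was lower against the 4 Kupffer groups by -2.40 ± 0.32 to -3.63 ± 0.32 (largest adjusted p = 3.19e-07). Against the monocytic control it was lower by -1.10 ± 0.32 (adjusted p = 0.0123), a call lost when only the arrays of both groups were fitted (adjusted p = 0.151), without monocytic MCSF 3 day replicate 3 (adjusted p = 0.204) and without Kupffer MCSF 3 day replicate 2 (adjusted p = 0.144). These 2 of 8 measured genes of the list were lower on the 3 control arrays than on all others, beside 0.39% of all genes.

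The remaining galectins and the interleukin 2 receptor differed from this. Lgals9, the ligand of Tim-3, was higher by 1.08 to 2.35 in 4 comparisons. Against the 1 day control its difference of 1.33 before the median was taken off fell to 0.52 without Kupffer MCSF 1 day replicate 1 (adjusted p = 0.301). Against HGF it did not pass without Kupffer MCSF 3 day replicate 2 or 3 or Kupffer HGF 3 day replicate 1 or 2, nor against Ito cells without Kupffer MCSF 3 day replicate 2 or 3 or any 1 Kupffer Ito 3 day array (adjusted p from 0.0589 to 0.145). Lgals4, an epithelial galectin, was lower in 4 and Lgals8 in 1, with Lgals4 under background in the 3 day Kupffer control at 3.53, 3.02 and 3.67 and at a mean of at most 5.63 in those 4 groups. The Lgals4 call against CD146 cells was lost without Kupffer MCSF 3 day replicate 2 (adjusted p = 0.164) or Kupffer CD146 3 day replicate 1 (adjusted p = 0.266). Il2ra passed in none of the 5. Il2rb, its partner chain, passed in 2 but read 3.33, 3.77 and 3.63, under background, as it did in all 5 comparison groups, and lost its call against HGF without Kupffer MCSF 3 day replicate 2 (adjusted p = 0.0628).

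**Figure D4:**
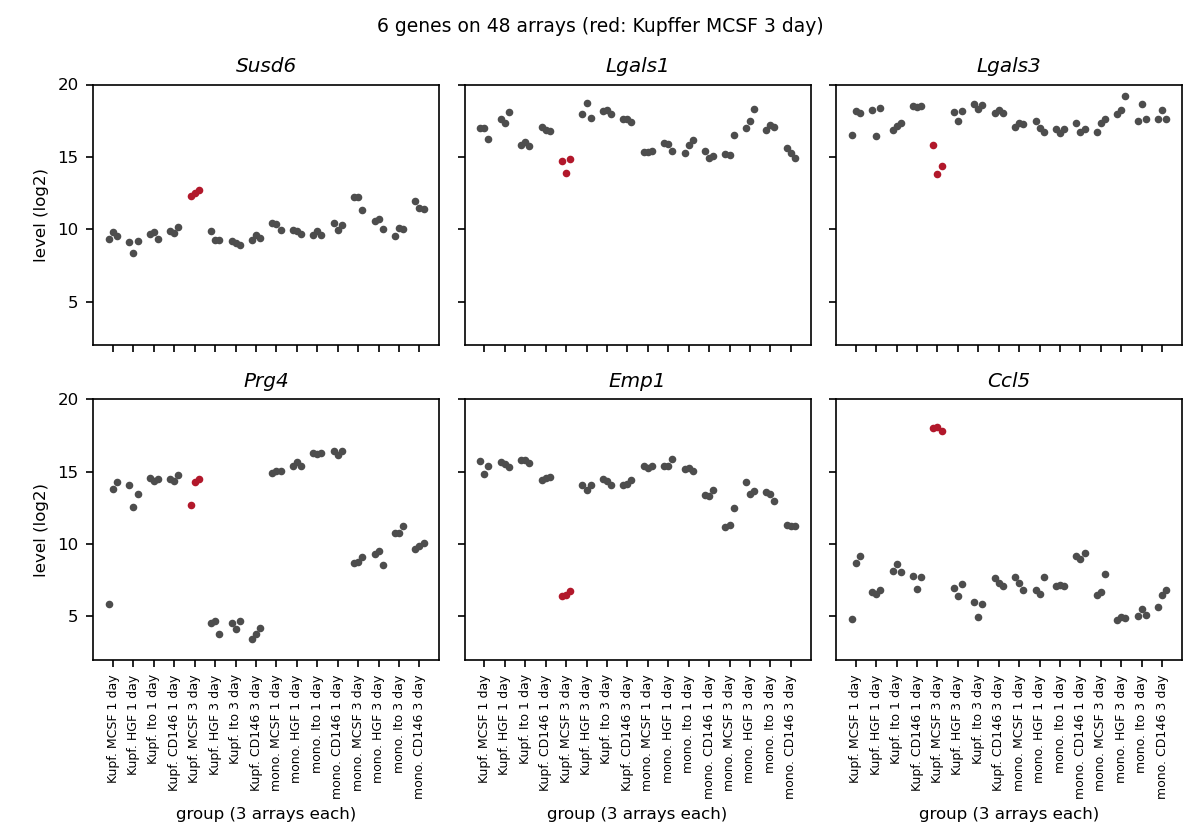
Levels (log2) of 6 genes on 48 arrays by group (3 points each, red for Kupffer MCSF 3 day). Ccl5 is high and Emp1 low in that group alone, Lgals1 and Lgals3 dip there, Susd6 is close to the 3 day monocytic control, and Prg4 is also high at 1 day.

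Interferon-induced genes were high in the same control cultures. Type I interferon genes code for antiviral sensors and effectors, and interferon gamma genes for chemokines, GTPases and antigen processing. Of 21 measured type I genes, 19, 17, 16, 12 and 20 were higher against the 1 day control, HGF, Ito cells, CD146 cells and the monocytic control, and 0, 1, 1, 2 and 0 lower. Their median differences of 2.36, 1.44, 1.92, 1.09 and 3.47 compare with the medians of all genes given above. Ifit1, an antiviral RNA binder, read 11.62, 11.29 and 11.72 in the 3 day Kupffer control and 5.75, 5.76 and 6.50 in the monocytic one, and was higher in all 5 by 1.32 ± 0.36 to 5.56 ± 0.36 (largest adjusted p = 0.00403). Irf7, the transcription factor that amplifies interferon, was higher in all 5 by 1.79 ± 0.51 to 6.79 ± 0.51 (largest adjusted p = 0.00272). Ifit3 was higher in all 5 by 1.75 to 5.47. Isg15, a ubiquitin-like protein, was higher by 1.05 to 1.93 against the 3 additions, and by at least 1.99 and 1.61 against the 1 day and monocytic controls, where it was under background. The Isg15 call against HGF was lost without Kupffer MCSF 3 day replicate 3 (adjusted p = 0.0542). Oasl1, an RNA sensor relative, was higher by 1.10 to 2.63 in the Kupffer comparisons and by at least 2.45 against the monocytic control, where it was under background. The call was lost without Kupffer MCSF 3 day replicate 3 against Ito cells (adjusted p = 0.173) and CD146 cells (adjusted p = 0.239). It was also lost without Kupffer Ito 3 day replicate 2 (adjusted p = 0.0831), Kupffer MCSF 3 day replicate 2 (CD146 cells; adjusted p = 0.0535) or Kupffer CD146 3 day replicate 1 (adjusted p = 0.0913). On all 3 control arrays, 13 of the 21 were higher than on all 45 others, beside the 2.62% of all genes, but 0 of the 21 by 2 units, beside 0.169%.

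Of 19 measured interferon gamma genes, 16, 15, 17, 15 and 16 were higher in the same order, and 1 was lower, against the 1 day control. The medians were 2.40, 2.07, 2.37, 1.77 and 3.01. Cxcl9, a chemokine for T cells, read 9.46, 9.55 and 9.21, was under background in all 5 comparison groups and was higher by at least 3.50 to 3.95 (largest adjusted p = 1.25e-18). Cd274, the checkpoint ligand PD-L1, read 15.66, 16.03 and 16.07 and was higher in all 5 by 1.83 ± 0.38 to 5.42 ± 0.38 (largest adjusted p = 7.05e-05). Psmb9, a subunit of the immunoproteasome, was higher in all 5 by 2.42 to 4.26. Higher on all 3 control arrays than on all 45 others were 11 of the 19, beside 2.62% of all genes. Of these, Gbp2 and Gbp3 alone met the limit of 2 units, beside 0.169% of all genes.

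Genes of the NF-kB and Toll-like receptor response were also more often higher than all genes were. Of 22 measured, 11, 12, 12, 15 and 18 were higher and 5, 2, 3, 1 and 1 lower, with medians of 1.24, 2.42, 2.33, 2.82 and 2.04. Against the 1 day control the lower share was also above that of all genes (10.2%). In the other comparisons it was below. Il1b, the cytokine interleukin 1 beta, read 15.59, 16.43 and 16.92 against 12.18, 11.55 and 11.56 at 1 day, and was higher in all 5 by 4.40 ± 0.72 to 10.80 ± 0.72 (largest adjusted p = 2.68e-06). Its means with HGF, Ito cells and CD146 cells and in the monocytic control, 5.96, 5.71, 5.52 and 6.10, were close to background. Il1a was higher by 2.05 to 6.78 in 4 and by at least 8.48 against CD146 cells, where it was under background. Nfkb2, the subunit p100 of the alternative NF-kB pathway, was higher in all 5 by 1.93 ± 0.33 to 4.61 ± 0.33 (largest adjusted p = 2.44e-05). The widest difference was against Ito cells, where 1 of 3 arrays was over background. Marco, a scavenger receptor, read 16.24, 15.49 and 15.75. It was higher by 5.45 to 10.15 against the 1 day control, HGF and Ito cells, and by at least 10.32 against CD146 cells, where it was under background. In the monocytic control it read 9.54, 10.32 and 15.30, the last on replicate 3. The difference there was 4.13, and the call was lost when only the arrays of both groups were fitted (adjusted p = 0.0773). Higher on all 3 control arrays than on all others were 7 of the 22, Ccl5 with them, beside 2.62% of all genes. Lower on all 3 was 1 of the 22, beside 0.39% of all genes.

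The acute phase list was mixed. Of 17 measured genes, 6, 7, 6, 7 and 6 were higher and 2, 0, 4, 2 and 0 lower, and the medians of 0.01, 0.26, -0.12, -0.01 and 0.38 were near those of all genes. The higher shares were above those of all genes in all 5 comparisons (21.5%, 13.1%, 12.3%, 12.4% and 6.38%). The lower shares were above them only against the 1 day control and Ito cells (10.2% and 14.5% of all genes). Lcn2, an iron-scavenging lipocalin, read 18.93, 19.28 and 19.28 and was higher in all 5 by 5.37 ± 0.79 to 12.38 ± 0.79 (largest adjusted p = 9.3e-07). The widest difference was against the monocytic control, with a mean of 6.81, where replicate 3 alone was over background. Ltf, lactoferrin, passed as lower in 2, against the 1 day control and Ito cells, with group means under background on both sides. Hp, Cfb and Cp, described above, were among the 6 of 17 higher on all 3 control arrays than on all others, beside 2.62% of all genes.

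**Figure D5:**
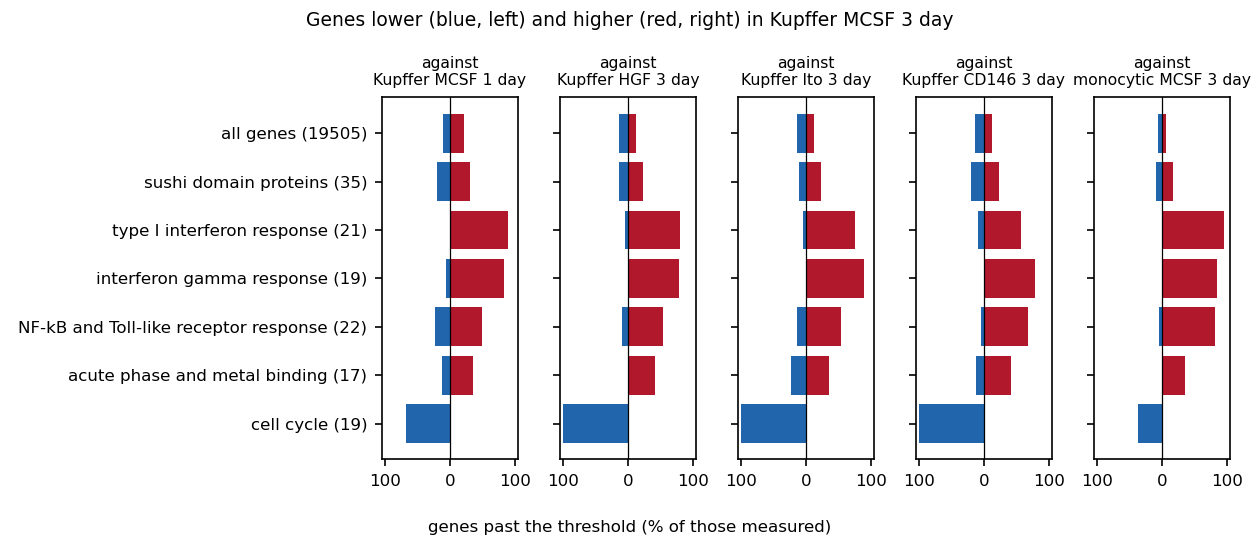
Share of measured genes past the threshold (%), higher (red, right) or lower (blue, left) in the 3 day Kupffer control, for all genes and 6 gene lists (number measured in parentheses) in 5 comparisons. Both interferon lists extend far right of the bar for all genes, the cell cycle list extends left only, and the sushi list has bars on both sides, with 11 of 35 higher and 7 lower against the 1 day control.

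Cell cycle genes moved the opposite way from Susd2. All 19 measured were lower in the 3 day Kupffer control than with HGF, Ito cells or CD146 cells, with medians of -5.24, -4.86 and -5.32, and 13 were lower than at 1 day (8 without Kupffer MCSF 1 day replicate 1). Their mean level was 6.87 in the 3 day Kupffer control (6.80 to 6.92 by array), 8.77 at 1 day, and 12.20, 11.74 and 12.41 with HGF, Ito cells and CD146 cells. Pcna, the clamp of DNA polymerase, was lower in all 5 by -1.47 ± 0.31 to -4.15 ± 0.31 (largest adjusted p = 0.000417). Its call against the monocytic control was lost when only the arrays of both groups were fitted (adjusted p = 0.132), as were those of Ccnb2 (adjusted p = 0.292) and Ube2c (adjusted p = 0.301). Rrm2 and Aurka, of nucleotide supply and the spindle, were lower in the 4 Kupffer comparisons. Rrm2 differed by -2.86 to -7.36, and Aurka, under background in the 3 day Kupffer control, was at least 1.54 to 4.38 lower. Against the monocytic control 7 of 19 were lower, but the count was 1 without its replicate 3 and 14 without either of its other arrays. Ube2c, a ubiquitin enzyme of mitosis, read 5.77, 5.73 and 12.35 there. Its call and that of Ccnb2, a cyclin of mitosis, were lost without replicate 3 (adjusted p = 0.135 and 0.139). The Ccnb2 call against the 1 day control was lost without Kupffer MCSF 1 day replicate 2 (adjusted p = 0.0571). Low levels of these genes also occurred without Susd2: the mean of the list was 5.82 in monocytic Ito 1 day and 6.57 in the 1 day monocytic control.

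Markers of other cells differed between the same groups. Cholangiocyte and epithelial genes averaged 3.74 in the 3 day Kupffer control (3.55 to 3.88 by array), with 0 of 9 over background, and 9.72, 7.27 and 8.18 with HGF, Ito cells and CD146 cells at 3 days. Hepatocyte genes averaged 3.80 (3.65 to 3.88) with 0 of 17 over background, against 6.36 at 1 day and 6.10, 5.52 and 4.66 with the 3 additions. Sinusoidal endothelial genes averaged 4.80 with 2 of 19 over background, against 8.35 at 1 day. Neutrophil genes averaged 6.55 with 4 of 13 over background, against 8.63 at 1 day and 7.75, 10.12 and 7.10 with the additions. The 1 day arrays, replicate 1 included, ran from 5.50 to 7.31 for hepatocyte, 7.33 to 9.53 for endothelial and 7.53 to 9.20 for neutrophil genes. B cell genes averaged 4.86 with 2 of 7 over background (Cd22 and Fcer2a), and T and NK cell genes 4.37 with 2 of 13 (Cd4 and Cd8a). Dendritic cell genes averaged 5.83 with 5 of 13 over background (Itgax, Ccr7, Fscn1, Bst2 and Irf8), against 5.94 at 1 day. Cd79a, Cd3e and Flt3 were under background. The part of these genes in the levels of Susd2, its sharers and the lists was not tested. Krt7, Alb, Cdh5 and Mpo, which define the first 4 of these lists, were under background in the 3 day Kupffer control.

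General macrophage markers averaged 15.96 in the 3 day Kupffer control and 14.55, 13.92, 14.17, 13.99 and 15.57 in its 5 comparison groups, in the order used above. Adgre1, the F4/80 antigen, read 17.60, 17.36 and 16.71 and was higher in all 5 comparisons by 1.18 ± 0.30 to 4.17 ± 0.30 (largest adjusted p = 0.00568). Csf1r, the MCSF receptor, was higher than in the 4 Kupffer groups by 1.13 to 2.09, and its difference from the monocytic control was -0.19 ± 0.23 (adjusted p = 0.686). Timd4, a phosphatidylserine receptor of resident macrophages, was higher in all 5 by 2.15 ± 0.35 to 4.16 ± 0.35 (largest adjusted p = 1.45e-05). Its mean in the 1 day Kupffer control, 5.33, was under background, with 1 of 3 arrays over it. The Kupffer marker list averaged 9.32 with 13 of 18 over background. It averaged 9.70 in the 1 day Kupffer control, 9.72, 8.91 and 8.07 with HGF, Ito cells and CD146 cells, and 9.66 in the 3 day monocytic control. The monocyte list averaged 9.64 with 8 of 11 over background. It averaged 9.42 in the 1 day Kupffer control, 10.22, 10.47 and 9.45 with HGF, Ito cells and CD146 cells, and 7.06 in the 3 day monocytic control. On the monocyte list the 3 day Kupffer control was thus above the monocytic control, with arrays at 9.57 to 9.74 against 6.90 to 7.24. On the Kupffer list the arrays of both groups overlapped, at 9.24 to 9.40 against 9.34 to 10.13. The monocyte list holds Hp and the Kupffer list Nr1h3, both among the genes chosen as high alone. Vsig4, a complement receptor of Kupffer cells, went both ways. It was higher than with Ito cells by 3.27, higher by at least 4.42 than with CD146 cells, where it was under background, and lower than in the monocytic control by -4.30. Against HGF the difference was -0.76, a call lost after median centring (adjusted p = 0.112) and without Kupffer MCSF 3 day replicate 2 or 3 or Kupffer HGF 3 day replicate 1 or 3 (adjusted p from 0.0645 to 0.374).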

How the data were processed

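The 48 arrays measured total RNA. The values deposited by the authors are log2 signals of probe sets, made with Transcriptome Analysis Console and RMA per the submitters' processing notes; versions, genome build and whether all arrays were normalized together are not given in the sources used here. Of 28846 probe sets, 6640 were controls (5222 negative), 2634 had no symbol and 19572 had 1 symbol in the platform annotation, all matched in RefSeq; for 55 genes with several probe sets the brightest was used. Levels were used as deposited.

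The pattern was searched with Python 3.11.15 and pandas 2.3.3. Comparisons used limma 3.58.1 in R 4.3.3 (lmFit on 16 group means, eBayes, two-sided, Benjamini-Hochberg over 19505 genes, threshold 0.05); both steps were tested on simulated data. Named genes were Susd2, the 15 most alike and the 15 with the widest gap among genes high alone, the mirror gene, up to 6 list members for each list of relatives or partners and up to 5 for each other list by smallest adjusted p, neighbours and defining markers; 8 more complete the set of 32. The Susd2 rule and all lists were chosen with earlier results of these data known. Equal replicate numbers did not pair arrays: deviations correlated at a mean of -0.010, and all 3 correlations passed 0.1 in 1 of 120 pairs of groups. Alternatives were quantile normalization, median centring, a filter on dim genes, other variance models, array weights, other gaps and measures of likeness, and leaving out arrays.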

Additional observations from a re-analysis of the deposited data

Results flagged for a closer look

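Among the 2634 transcript probe sets with no gene symbol, which enter no comparison above, 5 were high in the 3 day Kupffer control alone by the 2 log2 unit rule. Their gaps ran from 2.04 to 5.34, and the probe set with the widest averaged 12.40 there against 6.78 on the highest other array. They cannot be named from the annotation used here.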

How the results depend on the processing

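The Susd2 difference to the highest other group, 12.67, ran from 12.49 to 12.93 under all alternatives. The 33 genes high alone became 123 at a gap of 1, 15 at a gap of 3 and 88 by group means. The count was 34 to 47 without single 3 day Kupffer control arrays and 36 without monocytic MCSF 3 day replicate 3. A smaller gap, group means or fewer arrays can by the rule only add genes, so these settings could not lose any of the 33. Quantile normalization gave 32 genes and median centring 30, with 29 shared in each. Of the 15 most alike genes, picked among the 32, Spearman correlation kept 6, so that ranking depends on the measure. Against the 1 day Kupffer control 6197 genes passed, 9333 with array weights and 3311 with only the arrays compared; against the monocytic control 2355 passed, and 4093 with array weights. The causes were not tested. With the replicate block the 5 counts were 6118, 5332, 5161, 5118 and 2316, against 6197, 5386, 5219, 5147 and 2355, so no count moved by 1.5 times. Prg4 against Kupffer MCSF 1 day reversed from 2.53 to -0.20 (log2, median not taken off) without Kupffer MCSF 1 day replicate 1 and without the 3 arrays that stand apart, and leaving out single arrays gave -0.20 to 4.01. The settings without these arrays were added after seeing the data. Having 3 arrays per group and levels under background limits what low genes can show.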

Other observations

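The 3 day monocytic control replicate 3 is the array with a Susd2 level of 5.42. It also differed from its group mates in genes that missed the limit of 2 log2 units. Timd4 read 8.84 there and 6.85 and 6.74 on the others, Irf7 10.79 against 7.66 and 8.18, Lcn2 10.18 against 5.28 and 4.96, and Ifit3 10.42 against 7.81 and 8.59. The cell cycle list averaged 6.70 on the lowest and 11.44 on the highest array of that group. Timd4, Irf7, Lcn2 and Ifit3 shared the direction of the Susd2 pattern. With no minimum gap, each was higher on all arrays of the 3 day Kupffer control than on all others.

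In monocytic HGF 1 day, where Susd2 was lowest, 2002 genes were lower on the 3 arrays than on all others, against at most 123 in any other group. The medians of these 3 arrays, 4.27 to 4.32, were the lowest of the 48, and the others ran from 4.61 to 5.51. After each array was centred on its median, 28 genes were lower on the 3 arrays than on all others and 287 higher.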
